A study of Mus musculus with 24 samples.

Results

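The genes described here encode the proteins of the mitochondrial ribosome, the particle that translates the few messages of the mitochondrial genome. They were chosen by name: a gene belongs where its only platform symbol is Mrpl or Mrps followed by a number, pseudogenes were left out, and a gene with several probe sets was read from the one of highest mean. The rule found 77 genes among the 19938 measured. Of these, 50 encode proteins of the large subunit, 26 encode proteins of the small subunit, and Mrps36, despite its name, encodes a component of the ketoglutarate dehydrogenase complex. By ancestry, 47 have a bacterial homologue and 29 are specific to mitochondria, again leaving Mrps36 aside.

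All mitochondrial ribosomal proteins are encoded in the nucleus, made in the cytosol and imported, and they assemble in the matrix on ribosomal RNAs transcribed from mitochondrial DNA. Everything the particle makes is a membrane subunit of the respiratory chain or of ATP synthase, so its output has to be matched to the far larger set of respiratory subunits that come from nuclear genes. As background on the cells, dendritic cells that sense pathogens through Toll-like receptors are known to change their use of glycolysis and of mitochondrial respiration as they mature.

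The cells were conventional dendritic cells sorted as CD11c+ from collagenase-digested spleens and separated into a CD8+ and a CD11b+ subset. They came from female mice of 8 to 10 weeks, of the C57BL/6 (B6) strain or of NOD/ShiLt (NOD), a strain that develops autoimmune diabetes spontaneously. The mice had received either CpG-A, a synthetic DNA that activates Toll-like receptor 9, or PBS as the control, 12 h before the sort. Each of the 8 groups of subset, strain and injection holds 3 arrays, 24 in all, and the labels do not say whether the 3 are separate animals, so p-values cover only how far these samples lie apart, possibly for technical reasons. Values are log2 expression values, and a difference of 1 is a factor of 2. A gene is called higher or lower where its adjusted p was under 0.05 in the limma fit over all arrays, with Benjamini-Hochberg adjustment over the 11228 genes tested. All 77 members passed the filter on low values.

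Cd8a and Itgam separated the arrays by their sort label. Cd8a lay between 10.99 and 11.71 on the CD8+ arrays and between 5.04 and 8.81 on the CD11b+ arrays. Itgam, which encodes CD11b, lay at 4.45 to 5.39 and 6.61 to 9.03. Not every subset marker did so. Clec12a, listed for the CD11b+ subset, was higher in CD8+ cells, by 1.03 in B6 with PBS and by 2.54 (B6) and 1.48 (NOD) after CpG. Its value in NOD with PBS is not given here. Irf4 and Cd209a of the same list were not called between the subsets after CpG in either strain. Wdfy4, listed for the CD8+ subset, was at 0.06 in NOD after CpG and was not called. Arrays within a group were not alike for the members. Taking each member's value minus its mean on the matching PBS arrays, the median over the 77 was -0.77, -0.54 and -0.47 on the 3 B6 CD8+ CpG arrays, and -0.78, -0.13 and -0.07 on the 3 NOD CD8+ CpG arrays. Replicate 1 of the NOD CD8+ CpG group thus stood apart from its 2 companions and near the B6 arrays, with 70 of the 77 members below all 3 PBS arrays against 35 and 22. The member counts that use this group are given with and without that array. On the CD11b+ arrays the medians were -0.32, -0.19 and -0.23 for B6 and -0.09, 0.01 and -0.04 for NOD.

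**Figure D1:**
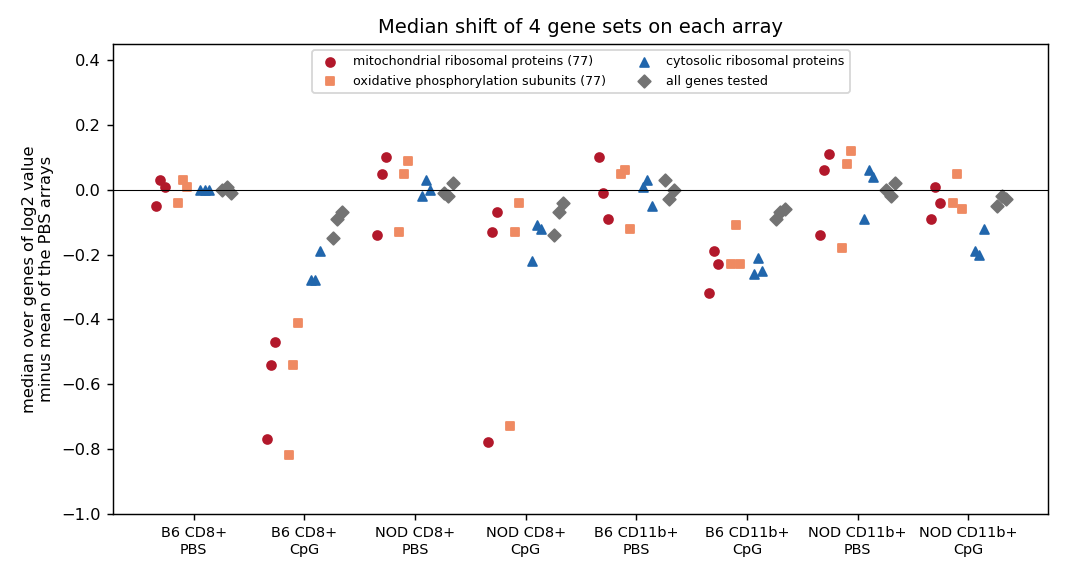
Median shift on each of the 24 arrays (points, 3 per group) of 4 gene sets, as the log2 value minus the mean of the PBS arrays of the same subset and strain. The members fell to between -0.47 and -0.77 on the B6 CD8+ CpG arrays, and the NOD CD8+ CpG group splits into 1 array at -0.78 and 2 at -0.13 and -0.07.

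In B6 CD8+ cells the transcripts of most mitochondrial ribosomal proteins were lower after CpG, and protein was not measured. Of the 77 members, 54 (70.1%) were lower and 6 (7.79%) were higher, against 36.6% and 21.1% of all genes tested. The median difference over the members was -0.59, a value that was -0.10 over all genes. In bulk samples such as these, fewer cells of a type and less RNA per cell cannot be told apart. The large subunit, with 35 of 50 members lower and 4 higher, had a median of -0.56, and the small subunit, with 18 of 26 lower and 2 higher, had one of -0.71. Members with a bacterial homologue (34 of 47 lower, median -0.59) and mitochondria-specific members (19 of 29, median -0.65) gave like counts. Centring each array on its median raised the median of all genes by 0.25, and 41 members were then lower and 8 higher (53.2% and 10.4%, against 24.7% and 35.9% of all genes), with a member median of -0.34. Leaving out any 1 array gave between 51 and 61 called members.

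Of the 8 members that fell furthest in B6 CD8+ cells, 6 encode proteins of the large subunit and 2 of the small subunit. Mrpl34, a large-subunit protein, read 7.93, 7.89 and 8.12 on the PBS arrays and 6.08, 6.27 and 7.10 on the CpG arrays. The groups did not overlap, and the difference was -1.50 ± 0.24 (SE; adjusted p = 1.16e-05). Mrpl23, which lines the exit of the tunnel through which the new protein leaves, went from 8.75, 8.82 and 8.69 to 6.66, 7.47 and 7.64, a difference of -1.50 ± 0.28. Mrpl42, a mitochondria-specific protein, went from 9.68, 9.73 and 9.88 to 7.96, 8.22 and 8.69, or -1.48 ± 0.34. In each of these 3 genes every CpG array lay below every PBS array.

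Mrpl57, another mitochondria-specific large-subunit protein, read 7.38, 7.53 and 7.54 with PBS and 5.74, 6.19 and 6.31 with CpG, a difference of -1.41 ± 0.21. Mrps33 of the small-subunit head fell from 8.91, 8.88 and 8.98 to 7.39, 7.53 and 7.87. Mrps5, which lies on the body of the small subunit near the entry of the messenger RNA, fell from 7.32, 7.49 and 7.44 to 5.94, 6.05 and 6.31, by 1.31 on the log2 scale. The CpG arrays of all 3 genes were again below the PBS arrays without overlap. Mrpl52 (-1.19 ± 0.18) and Mrpl22, a protein of the tunnel wall (-1.17 ± 0.26), complete the 8 lowest members.

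By function, the 3 members grouped here as the stalk that recruits translation factors were lower. Mrpl54, outside that grouping, was at -0.39 ± 0.20 and was not called. Of all members 70.1% were lower, and of all genes tested 36.6%. The small groups by function were not compared with the other members. Mrpl12, which forms the stalk and also binds the mitochondrial RNA polymerase, went from 8.39, 8.42 and 8.48 to 7.28, 7.50 and 7.80 (-0.90 ± 0.18, adjusted p = 0.000131). Its anchors Mrpl10 and Mrpl11 at the stalk base differed by -0.39 ± 0.10 and -0.68 ± 0.15. Mrpl1 of the L1 stalk, the arm beside which used tRNAs leave, differed by -0.40 ± 0.14. The 5 members grouped here as tunnel proteins (Mrpl17, Mrpl22, Mrpl23, Mrpl24 and Mrpl47) were lower, with a median of -0.54. Mrpl24 was close to the threshold (-0.28 ± 0.12, adjusted p = 0.0487), and a second probe set of Mrpl47 gave -0.05 against -0.37. Values after median centring, which raised the median of all genes by 0.25, are not given for these 5. Mrpl4 and Mrpl45, outside that grouping, were at -0.17 (not called) and 0.38 (higher). Of the 6 proteins of the central protuberance 4 were lower, among them Mrpl18 (-1.04 ± 0.22). Of the 5 core proteins near the peptidyl transferase centre, 3 were lower and Mrpl27 was higher. After median centring the differences of Mrpl10 and Mrpl1 were both -0.15 and neither was called, and Mrpl1 also lost its call without CpG replicate 1 or 2 or PBS replicate 2 (-0.37, -0.32 and -0.35).

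In the small subunit Mrps12, the decoding-centre protein, differed by -0.67 ± 0.20, and its call was lost without CpG replicate 1, at -0.48. Mrps34, needed for the stability of the small-subunit RNA, differed by -0.82 ± 0.15, and Mrps2 by -0.45 ± 0.13, the latter not called after median centring at -0.21. Of the 7 head proteins 5 were lower, near the share of 70.1% over all members, and Mrps7 was higher. The 3 forms of protein S18 parted: Mrps18b was lower (-1.13 ± 0.23), whereas Mrps18a, which sits in the large subunit, was at -0.43 ± 0.20 (adjusted p = 0.0663) and Mrps18c at -0.05 ± 0.20 (adjusted p = 0.83). Mrps30, also a large-subunit protein despite its name, differed by -0.75 ± 0.19. Mrps27, an RNA-binding protein, and Mrpl44, a relative of the RNA-cutting enzyme RNase III, were at -0.30 ± 0.17 and -0.18 ± 0.14 and were not called. Mrps36, outside the ribosome, differed by -0.55 ± 0.21, and this call ended after median centring (-0.31), without CpG replicate 1 (-0.32) and without PBS replicate 2 or 3 (-0.52 and -0.56).

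In B6 CD8+ cells 6 of the 77 members rose, and 4 of them by 0.81 or more on the log2 scale. Mrpl13, a conserved protein of the large-subunit surface, read 8.17, 8.28 and 8.22 with PBS and 9.37, 9.97 and 9.69 with CpG, a difference of 1.45 ± 0.16 (adjusted p = 5.18e-08). Mrps6, which sits on the small-subunit platform, went from 7.88, 8.01 and 7.89 to 8.88, 9.25 and 9.23, by 1.19 ± 0.15. Mrpl14, at the face where the subunits meet, went from 8.06, 8.16 and 7.87 to 8.78, 9.01 and 9.03, by 0.91 ± 0.14. All 3 genes had every CpG array above every PBS array.

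Mrps7, which nucleates the small-subunit head in the bacterial particle, rose from 8.17, 8.02 and 8.13 to 8.72, 8.90 and 9.11, by 0.81 ± 0.14, again without overlap. The remaining 2 were smaller: Mrpl45, which holds the particle to the inner membrane, at 0.38 ± 0.13 with overlapping groups, and Mrpl27, a core protein, at 0.37 ± 0.15. Mrpl45 lost its call without CpG replicate 2 (0.29) or PBS replicate 2 or 3 (0.35 and 0.30), and Mrpl27 without CpG replicate 2 (0.21) or PBS replicate 1 or 2 (0.35 each).

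**Figure D2:**
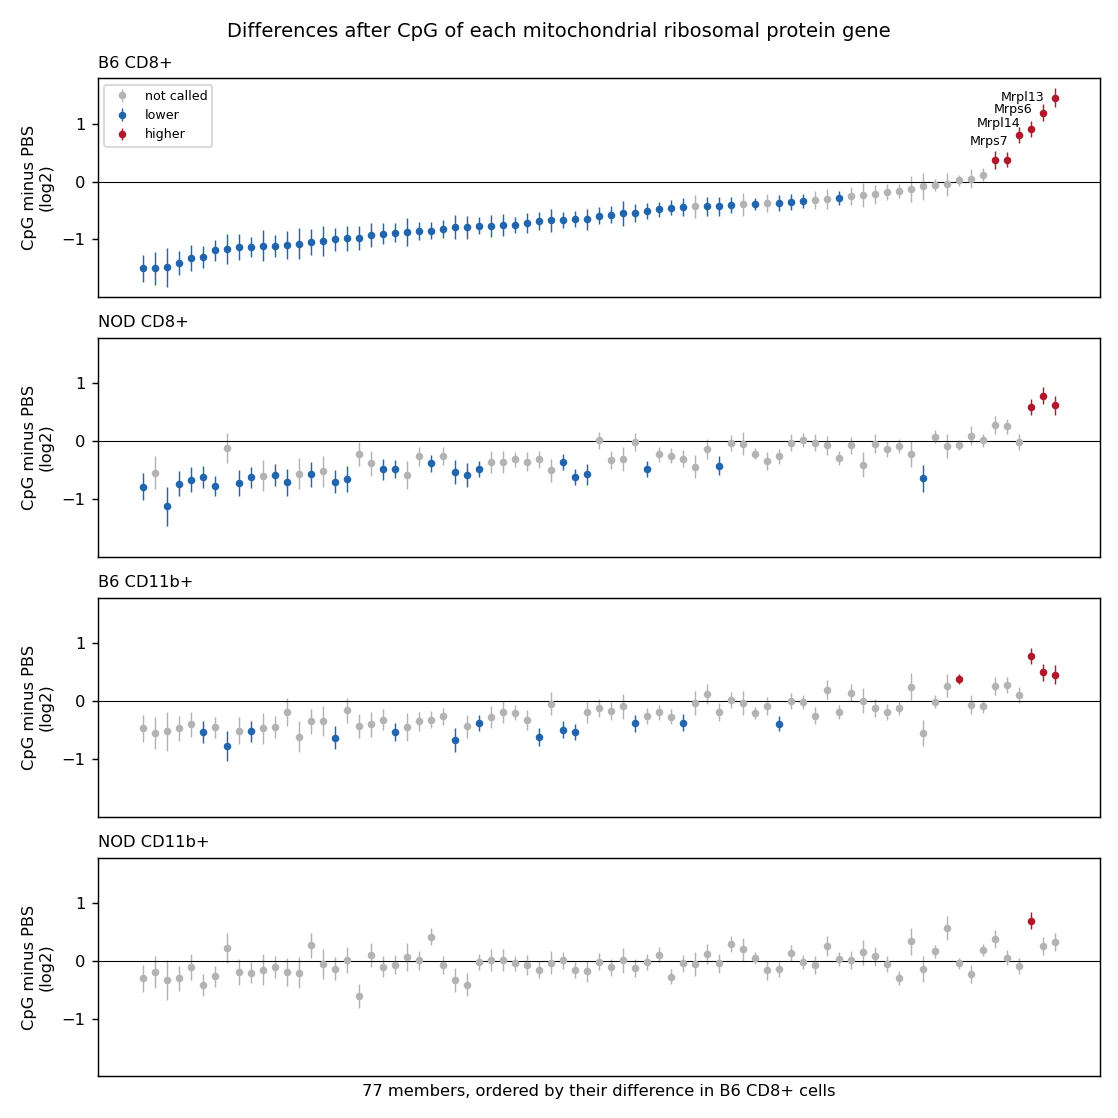
Difference after CpG (log2, points with SE) of all 77 members in each subset and strain, in the same gene order in all panels, coloured by the call. In B6 CD8+ cells 54 lie below 0 with a call and Mrpl13, Mrps6, Mrpl14 and Mrps7 stand at the right end, whereas in NOD CD11b+ cells 1 member is called.

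Mrps6, Mrpl14 and Mrps7 share their ground with other genes that rose. In the RefSeq annotation 24 of the 77 members overlap another annotated gene, and 11 overlap one that was tested. Mrps6 overlaps Slc5a3, a myo-inositol transporter gene, by 29138 bases. The difference of Slc5a3 after CpG in B6 CD8+ cells was 1.28 (adjusted p = 5.17e-08) and in NOD CD8+, B6 CD11b+ and NOD CD11b+ cells 0.67, 0.35 and 0.06, the last not called. Mrps6 itself gave 1.19, 0.79, 0.50 and 0.26 in the same order, the last again not called. The order of the 4 groups is the same for both genes.

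Mrpl14 overlaps Tmem63b, which encodes a stretch-activated ion channel, by 622 bases, and Tmem63b rose by 1.74, 1.35, 1.75 and 1.20 in that order of groups, all called. Mrps7 overlaps Mif4gd by 119 bases and Gga3, a sorting adaptor of the Golgi, by 378. Mif4gd, whose protein binds factors of mRNA translation, rose by 1.79, 0.99, 1.18 and 0.72, also called in all 4, whereas Mrps7 was called in B6 CD8+ cells and in none of the other 3 groups. Gga3 gave 1.01, 0.19, 0.46 and -0.04, called in both B6 subsets only. Whether the probes of these members read the neighbouring transcripts was not tested. For Mrpl13 no overlapping gene was found. Members that fell also have such neighbours: Mrpl48 differed by -0.65 in B6 CD8+ cells and Rab6a, which overlaps it, by 0.24. Mrpl44 overlaps Wdfy1 by 126 bases. In B6 CD11b+ cells Wdfy1 rose by 1.25, whereas Mrpl44 was at -0.19 and was not called.

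Promoter letters were compared because so many members moved together. RefSeq promoters on GRCm38.p6, from 250 bases before to 50 after the start, were given for 68 members. The letters searched, on both strands, were those of 3 factors known for nuclear genes of mitochondria: GCATGCGC for NRF1, CCGGAAGT for the ETS factor GABP, and AAGATGGCG for YY1. At least 1 of the 3 was present in 26 of the 68 members (38.2%), in 17.3% of the 9006 tested genes with a promoter and in 8.47% of all 27025. For NRF1 the shares were 11.8%, 5.91% and 3.05%, for ETS 17.6%, 9.12% and 4.31%, and for YY1 11.8%, 3.61% and 1.64%. Mrpl33 held both NRF1 and ETS letters and Mrps27 both ETS and YY1 letters. Of the 49 members that fell in B6 CD8+ cells and had a promoter, 10.2% held the NRF1, 16.3% the ETS and 10.2% the YY1 letters, and of the 5 that rose, Mrpl27 held ETS letters and the others none of the 3. A match is a description of letters and says nothing of binding.

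Promoters of 3 members that fell and of 1 that rose are printed 5′ to 3′, with matched letters in capitals. That of Mrpl42, which fell in CD8+ cells of both strains, lies at chr10:95501900-95502199 on the minus strand and holds the YY1 letters at position 27 after the start. That of Mrps18b, which did so too, lies at chr17:35916391-35916690 on the minus strand and holds the NRF1 letters in 2 places, the first at -223. In NOD both genes lost their call without CpG replicate 1. That of Mrpl34, which fell furthest, lies at chr8:71464676-71464975 on the plus strand, and that of Mrps6, which rose, at chr16:92058086-92058385 on the plus strand. Neither of these last 2 holds any of the 3.
Mrpl42: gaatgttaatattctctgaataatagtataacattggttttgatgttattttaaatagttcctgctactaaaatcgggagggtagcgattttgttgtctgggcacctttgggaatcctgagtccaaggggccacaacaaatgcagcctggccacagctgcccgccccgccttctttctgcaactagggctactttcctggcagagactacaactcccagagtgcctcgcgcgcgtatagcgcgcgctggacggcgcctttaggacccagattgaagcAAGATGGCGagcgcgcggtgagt
Mrps18b: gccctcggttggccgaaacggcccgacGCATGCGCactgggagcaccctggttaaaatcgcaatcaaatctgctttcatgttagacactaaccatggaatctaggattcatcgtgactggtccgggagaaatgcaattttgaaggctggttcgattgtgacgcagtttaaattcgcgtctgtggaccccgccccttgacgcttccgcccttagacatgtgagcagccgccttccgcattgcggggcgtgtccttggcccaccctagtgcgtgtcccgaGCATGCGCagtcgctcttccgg
Mrpl34: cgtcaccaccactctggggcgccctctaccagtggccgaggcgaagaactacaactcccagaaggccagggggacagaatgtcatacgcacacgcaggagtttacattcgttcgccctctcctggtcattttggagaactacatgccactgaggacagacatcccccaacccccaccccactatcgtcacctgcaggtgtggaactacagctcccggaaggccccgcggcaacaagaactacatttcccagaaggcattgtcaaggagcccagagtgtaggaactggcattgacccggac
Mrps6: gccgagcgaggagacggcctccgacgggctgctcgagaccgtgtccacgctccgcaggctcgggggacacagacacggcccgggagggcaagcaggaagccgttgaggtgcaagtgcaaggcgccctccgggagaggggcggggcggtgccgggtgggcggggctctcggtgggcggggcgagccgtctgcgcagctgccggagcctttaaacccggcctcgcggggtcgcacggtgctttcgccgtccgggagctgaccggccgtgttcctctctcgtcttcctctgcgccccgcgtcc

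Motifs known from innate activation were looked for in the same windows. The letters TTCNNTTTC of interferon-responsive elements were in 10.3% of the members, 8.72% of tested genes and 9.76% of all genes. The NF-kB letters GGGNNTTCC were in 4.41%, 8.75% and 6.58%, and the E-box CACGTG, read by Myc among others, in 7.35%, 11.6% and 8.09%. None of the 5 risers with a promoter held any of these.

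In NOD CD8+ cells 25 members (32.5%) were lower and 3 (3.90%) were higher, against 25.5% and 15.1% of all genes tested, so the share lower was near the background. The median was -0.32, and -0.08 over all genes. Of the 25 genes, 24 were also lower in B6 CD8+ cells, which is 96.0% of the NOD list and 44.4% of the B6 list, and Mrpl50 was the exception. Mrpl13, Mrps6 and Mrpl14 were higher in both strains. Median centring raised the median of all genes by 0.14 and left 17 members lower and 5 higher (22.1% and 6.49%, against 17.0% and 21.1% of all genes).

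The count in NOD CD8+ cells rested on CpG replicate 1. Without it, 2 members were lower and 4 higher, and the median was -0.11, while 16.0% of all genes were still lower and 13.3% higher. The 2 were Mrpl48 and Mrpl52, and the 4 were Mrpl13, Mrpl14, Mrps6 and Mrpl27. Without replicate 3 of the same group the counts were 40 and 3, and without PBS replicate 2 or 3 they were 12 and 3 or 7 and 3. Mrpl42 read 9.23, 9.64 and 9.73 with PBS and 7.14, 9.03 and 9.08 with CpG, a difference of -1.12 ± 0.34 that became -0.48 without replicate 1 and was then not called. Mrpl34 read 7.63, 8.09 and 8.14 with PBS and 6.58, 7.48 and 7.46 with CpG (-0.78 ± 0.24, and -0.48 without that array, then not called). In both genes the first CpG array lies far below the others, yet no CpG array overlaps the PBS arrays.

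Mrpl52 differed by -0.77 ± 0.18 and Mrpl48, of the central protuberance, by -0.62 ± 0.14. Mrpl33 (-0.70), Mrpl50 (-0.64), Mrps5 (-0.62) and Mrpl15 (-0.58) complete the members whose groups did not overlap among the 8 lowest, and without replicate 1 they stood at -0.38, -0.34, -0.32 and -0.24 and were not called. Mrpl12, Mrpl18 and Mrps18b were called at -0.48, -0.57 and -0.72 and stood at -0.25, -0.17 and -0.34 without it, then not called. Mrps12 at -0.50 missed the threshold (adjusted p = 0.053), and Mrpl45 at 0.26 did too (adjusted p = 0.125). The 3 risers held without that array: Mrps6 read 7.81, 8.21 and 7.73 with PBS and 8.38, 9.01 and 8.75 with CpG (0.79 ± 0.15), Mrpl13 read 8.15, 8.24 and 8.33 and then 8.65, 9.15 and 8.77 (0.62 ± 0.16), and Mrpl14 differed by 0.60 ± 0.14. Mrps7 read 7.97, 7.96 and 8.08 with PBS and 7.73, 8.11 and 8.16 with CpG, with overlapping groups and a difference of -0.01 ± 0.14 (adjusted p = 0.979) that was above 0 under median centring, at 0.14.

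**Figure D3:**
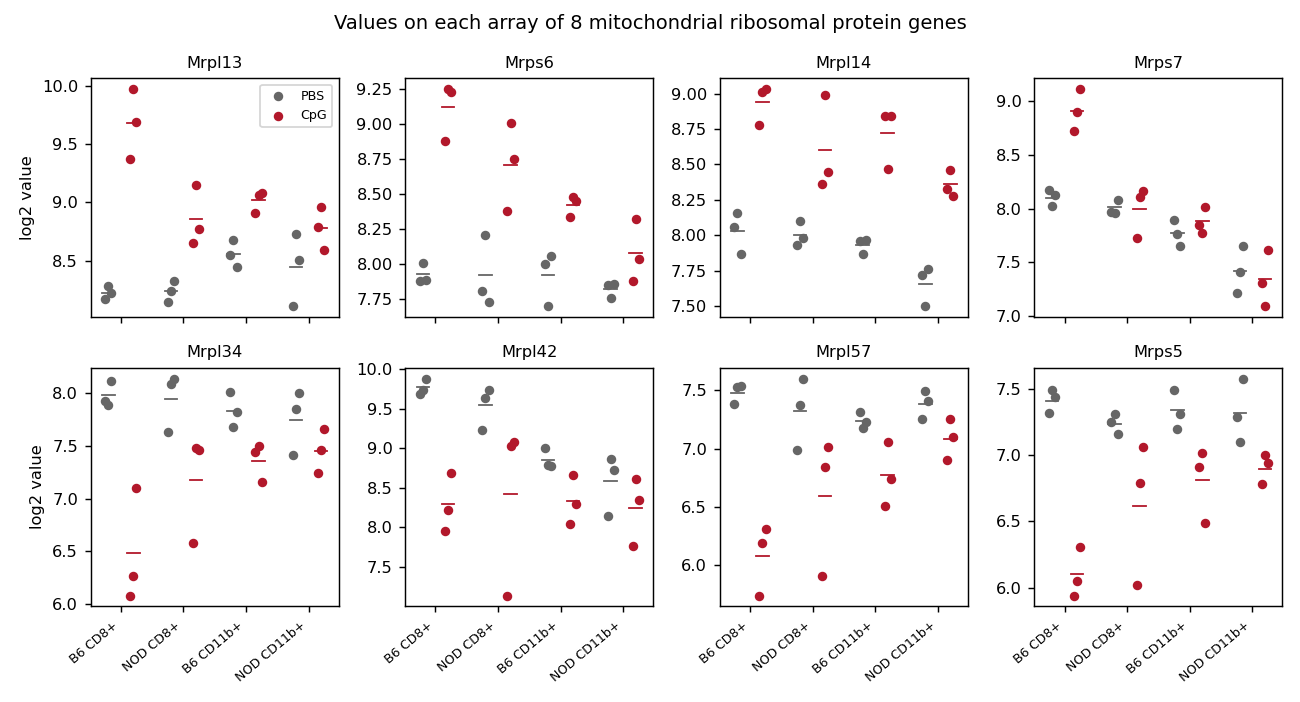
Log2 values on each array (points, PBS grey and CpG red, with the group mean as a line) of 4 members that rose and 4 that fell in B6 CD8+ cells, in each subset and strain. Mrps7 separates PBS from CpG in B6 CD8+ cells only, and Mrpl42 and Mrps5 show 1 low NOD CD8+ CpG array, at 7.14 and 6.02.

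In B6 CD11b+ cells 13 members (16.9%) were lower and 4 (5.19%) were higher, against 23.0% and 15.9% of all genes tested. All 13 were among the 54 lower in B6 CD8+ cells (24.1% of those). Mrpl22 differed by -0.77 ± 0.26, Mrps17 by -0.67 ± 0.21, Mrpl33 by -0.63 ± 0.20 and Mrps14 of the head by -0.53 ± 0.16. Mrpl11 of the stalk base read 8.87, 8.79 and 8.59 with PBS and 8.23, 8.06 and 8.08 with CpG, or -0.62 ± 0.15 (adjusted p = 0.00147). Mrps5, Mrpl48 and Mrpl37 stood at -0.53, -0.53 and -0.52. The genes that had fallen furthest in CD8+ cells, Mrpl34 and Mrpl42, stood at -0.47 and -0.52 here without a call (adjusted p = 0.123 and 0.245).

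Mrpl14 rose from 7.96, 7.87 and 7.97 to 8.84, 8.47 and 8.84 in B6 CD11b+ cells (0.78 ± 0.14), and Mrps6 (0.50 ± 0.15), Mrpl13 (0.46 ± 0.16) and Mrpl39 (0.38 ± 0.09) rose as well. Mrps7 was at 0.11 ± 0.14. Median centring raised the median of all genes by 0.12 here and gave 9 members lower and 6 higher (11.7% and 7.79%, against 17.0% and 20.6% of all genes). Without PBS replicate 1 the counts were 5 and 3, whereas array weights gave 30 and 4, a fit of these groups alone 31 and 4, and the replicate block 23 and 4. Markers of natural killer (NK) cells moved with this comparison: 11 of 12 were higher and 1 lower, with a median difference of 3.50, and their summed level went from between 11.28 and 11.85 with PBS to between 13.84 and 14.73 with CpG. Klrb1c, which encodes NK1.1, went from 4.52 to 5.19 up to 7.63 to 9.10. Markers of the CD11b+ subset itself fell, 7 of 10 with 1 higher, and their summed level went from between 12.67 and 12.70 to between 11.40 and 11.65, with Cd209a at -4.98 and Itgam at -1.99. Of 6 markers common to both subsets 5 fell, their summed level going from between 13.84 and 13.98 to between 13.25 and 13.42. Their part in the members' values was not tested.

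In NOD CD11b+ cells Mrpl14 was the 1 member called, and no member was lower (4 at an unadjusted p under 0.05). It read 7.72, 7.50 and 7.76 with PBS and 8.33, 8.46 and 8.28 with CpG (0.70 ± 0.14, adjusted p = 0.000903). Of all genes tested, 9.7% were higher and 5.73% lower, against 1.30% and 0.00% of the members, and both medians were -0.04. Mrps18c at 0.57 ± 0.20 (adjusted p = 0.0518), Mrps5 at -0.42 ± 0.19, Mrpl13 at 0.33 ± 0.16 and Mrps6 at 0.26 ± 0.15 were not called. Same-numbered arrays of this pair of groups deviated together, and with the replicate number as a replicate block 3 members were higher and 1 lower. Without PBS replicate 2 or CpG replicate 3, 2 or 3 members were called, all higher, and median centring gave 3 higher and 1 lower (3.90% and 1.30%, against 10.5% and 6.17% of all genes). Of the NK markers 7 of 12 were higher, with a summed level of 11.14 to 11.38 with PBS and 11.56 to 11.66 with CpG. Of the CD11b+ subset markers 4 of 10 were lower and 2 higher, with a summed level of 12.65 to 12.74 and then 12.13 to 12.27. Their part in the members' values was not tested. Mrpl14 was thus higher after CpG in both subsets and both strains, and 15 members were called in none of the 4 comparisons, among them Mrpl44, Mrps18a, Mrps18c and Mrps27.

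**Figure D4:**
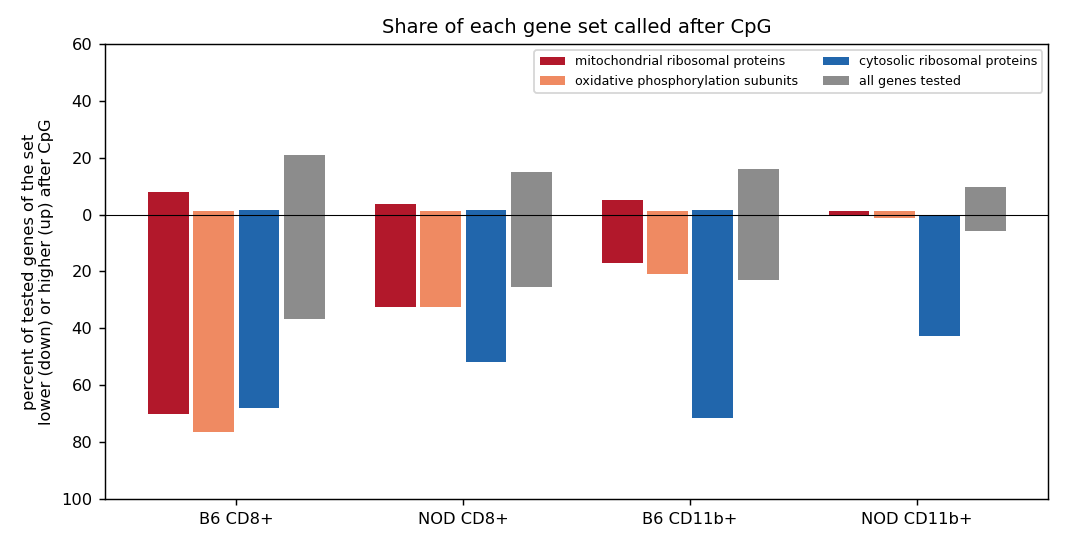
Share of each gene set called higher (bars up) or lower (bars down) after CpG in each subset and strain, in percent of its tested genes. In B6 CD8+ cells 70.1% of the members were lower against 36.6% of all genes, and in NOD CD11b+ cells 0.00% of the members were lower against 42.9% of the cytosolic ribosomal proteins.

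Other sets were measured alongside, the respiratory subunits that the particle's products join and the cytosolic ribosome. Nuclear-encoded subunits of oxidative phosphorylation, 77 tested, had medians of -0.60, -0.29, -0.19 and -0.02 in B6 CD8+, NOD CD8+, B6 CD11b+ and NOD CD11b+ cells, with 59, 25, 16 and 1 lower. Cytosolic ribosomal proteins, 56 tested, had medians of -0.24, -0.17, -0.23 and -0.18, with 38, 29, 40 and 24 lower. The members' own medians were -0.59, -0.32, -0.25 and -0.04, with 54, 25, 13 and 0 lower. Replicate 1 of the NOD CD8+ CpG group was the lowest of its group in all 3 sets, at -0.78 for the members, -0.73 for oxidative phosphorylation and -0.22 for the cytosolic ribosome, and without it 8 oxidative phosphorylation genes and 15 cytosolic ribosomal genes were lower. These lists were compared by counts and medians, with no test of the difference between them.

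Genes that build and serve the mitochondrial ribosome moved in both directions. In B6 CD8+ cells, where 36.6% of all genes were lower and 21.1% higher, 13 of 23 assembly and rRNA modification genes were lower and 2 were higher. Mettl17, an assembly factor of the small subunit, rose by 2.22 ± 0.17 (adjusted p = 3.22e-10) and Nsun4, an rRNA methyltransferase that joins the subunits, by 1.66 ± 0.18. Rbfa, a maturation factor of the small-subunit RNA, fell by 1.14 on the log2 scale and Tfb1m, which dimethylates that RNA, by 1.10. In NOD CD8+ cells Nsun4, Mettl17 and Rbfa gave 1.34, 0.75 and -0.81. In B6 CD8+ cells 10 of 14 translation factors were lower and 3 higher: Mrrf, the recycling factor, stood at -1.25 ± 0.22, Lrpprc, which stabilises mitochondrial messages, at -1.21 ± 0.16, Guf1, an elongation factor, at -1.03 ± 0.16, and Mtif3, which initiates translation, at 1.40 ± 0.12. Mtif3 was also higher in NOD CD8+ cells, at 0.87 ± 0.12.

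Of the other sets, 11 of 15 mitochondrial aminoacyl-tRNA synthesis genes were lower in B6 CD8+ cells. Of the genes of mitochondrial DNA maintenance and transcription, 4 of 8 were lower, near the share of all genes, and Tfb2m, a cofactor of the mitochondrial RNA polymerase, had the widest difference (-1.01 ± 0.15). Among proteins of the particle that carry other names, 3 of 4 were lower, with Ptcd3 at -1.02 ± 0.15. Of 8 regulators of mitochondrial biogenesis, Myc (-1.33 ± 0.25) and the coactivator gene Pprc1 (-1.12 ± 0.19) were lower, and Ppargc1a (0.83 ± 0.19) and Gabpb1, a subunit of GABP (0.62 ± 0.16), were higher. Of 19 proliferation genes 12 were lower in B6 CD8+ cells, and their median was -0.56 there and 0.08 in NOD CD8+ cells. Markers of the CD8+ subset fell too after CpG. In B6 9 of 10 were lower, with their summed level going from between 14.30 and 14.44 to between 12.99 and 13.43. In NOD 8 of 10 were lower, from between 14.32 and 14.43 to between 13.25 and 14.08. In B6 CD8+ cells the summed level of 6 markers common to both subsets went from between 13.88 and 13.89 to between 13.23 and 13.37. That of 8 plasmacytoid dendritic cell markers went from between 10.79 and 11.12 to between 12.2 and 12.54, with Bst2 at 2.67 and Siglech at -1.41. The part of all these markers in the members' values was not tested.

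With PBS, limma called no member between the strains in CD8+ cells, where 3.62% of all genes were called, nor in CD11b+ cells, where 5.59% were. At an unadjusted p under 0.05 the counts were 5 and 6, and the member medians of NOD minus B6 were -0.04 and -0.08. The widest differences belonged to Mrpl22, at -0.55 ± 0.26 and -0.75 ± 0.26 (adjusted p = 0.403 and 0.106), a gene singled out after its values were seen. A sequence difference between the strains under a probe can also shift a value and was not tested.

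After CpG, 8 members were higher and 3 lower in NOD than in B6 CD8+ cells (10.4% and 3.90%), against 12.4% and 7.84% of all genes, and the median was 0.24. Mrpl35 read 6.34, 6.60 and 6.74 in B6 and 6.77, 7.72 and 7.71 in NOD (0.84 ± 0.21), and Mrpl19 differed by 0.69 ± 0.15. Both are large-subunit proteins. Mrps7 read 8.72, 8.90 and 9.11 in B6 and 7.73, 8.11 and 8.16 in NOD (-0.91 ± 0.14, adjusted p = 8.7e-05), and Mrpl13 9.37, 9.97 and 9.69 in B6 and 8.65, 9.15 and 8.77 in NOD (-0.82 ± 0.16). Neither pair of groups overlapped. Mrpl50, named after its values were seen because 3 were lower, was at -0.68 ± 0.23 with overlapping groups, and at -0.39 without NOD replicate 1. Median centring gave 6 higher and 5 lower (7.79% and 6.49%, against 8.34% and 12.9% of all genes), and with the replicate block, where same-numbered arrays deviated together, 16 were higher and 4 lower. Markers of other kinds moved with this comparison: 7 of 10 CD8+ subset markers were higher in NOD and 0 lower, with summed levels of 13.25 to 14.08 in NOD and 12.99 to 13.43 in B6. Of 6 B cell markers Cd79a (1.55) and Cd79b (1.47) were higher, with summed levels of 10.07 to 11.34 in NOD and 8.81 to 9.73 in B6. Of 7 plasmacytoid dendritic cell markers tested Siglech (1.51) and Ccr9 (0.93) were higher. Spib (-0.45) and Bst2 (-0.34) lay below 0 without a call. Summed levels of that list overlapped, at 12.08 to 12.52 in NOD and 12.2 to 12.54 in B6. The part of all these markers in the members' values was not tested.

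This count too turned on replicate 1 of the NOD CD8+ CpG group. Without it 45 members (58.4%) were higher in NOD and 2 lower, with a median of 0.44, against 24.3% and 10.8% of all genes. Without replicate 2 or 3 of that group 2 or 1 were higher and 5 or 2 lower, and without B6 CpG replicate 1 or 2 the counts were 3 and 4 or 2 and 2. The difference between the strains in the CpG effect itself was called for Mrpl13 (-0.84 ± 0.22, adjusted p = 0.0325) and Mrps7 (-0.81 ± 0.20, adjusted p = 0.0216), both smaller in NOD, where 4.02% of all genes were called. Without the array, 35 members had a called difference with NOD the higher, 45.5% of the 77 against 13.3% of all genes, and Mrpl13 and Mrps7 again had one with NOD the lower. Without B6 CpG replicate 3 there were 5 such members, and without any 1 PBS array of either strain, B6 CpG replicate 2 or NOD CpG replicate 3 there were 0 or 1.

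In CD11b+ cells after CpG, 3 members were higher and 2 lower in NOD (3.90% and 2.60%), against 13.9% and 9.22% of all genes. Mrpl35 (0.73 ± 0.21), Mrpl11 (0.48 ± 0.15) and Mrpl30 (0.46 ± 0.15) were higher. Mrps7 read 7.85, 7.77 and 8.01 in B6 and 7.31, 7.09 and 7.61 in NOD (-0.54 ± 0.14), and Mrpl39 differed by -0.36 ± 0.09. For all 5 the groups did not overlap. Median centring gave 3 higher and 6 lower (3.90% and 7.79%, against 11.2% and 12.6% of all genes). Of 12 NK markers 10 were lower in NOD, with a median difference of -3.71 and Klrc1 at -4.81, and 8 of the 12 were lower in the test of the CpG effect between strains. What these add to the members' values was not tested. Without NOD CpG replicate 2, 1 member was lower and 0 higher, and without B6 CpG replicate 1 the counts were 1 and 2. By limma no member had a called difference of the CpG effect between strains, where 4.38% of all genes had one. At an unadjusted p under 0.05 there were 6, and without B6 PBS replicate 3 or NOD CpG replicate 3 there was 1 called. Mrpl35 was thus higher and Mrps7 lower in NOD in both subsets after CpG. Same-numbered CD8+ and CD11b+ arrays deviated together after CpG in both strains (r from 0.132 to 0.445 in B6 and from 0.203 to 0.353 in NOD). The subsets therefore cannot be taken as independent of each other, though differently numbered arrays were not compared in this way.

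Between the subsets few members differed with PBS. In B6, Mrps27 was higher in CD8+ cells, at 6.71, 6.90 and 6.73 against 6.41, 6.35 and 6.05 (0.51 ± 0.17), and Mrpl24 was lower (-0.37 ± 0.12), with 9.57% of all genes higher and 12.2% lower. Leaving out any 1 array of these groups left 0 or 1 member called, and with the replicate block 3 were higher and 2 lower, where same-numbered arrays deviated together. Median centring gave 4 higher and 1 lower (5.19% and 1.30%, against 11.8% and 11.1% of all genes). In NOD, 4 were higher in CD8+ cells and 0 lower, against 10.6% and 11.2% of all genes. Mrps27 read 6.97, 6.72 and 7.12 against 6.20, 6.18 and 6.30 (0.70 ± 0.17), Mrps7 differed by 0.58 ± 0.14, Mrpl42 by 0.96 ± 0.34, and Mrpl27, named after its values were seen, by 0.41 ± 0.15 with overlapping groups. Without CD8+ replicate 2 or 3 or CD11b+ replicate 1 or 2, 2 members were called, both higher.

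In B6 after CpG, 23 members were lower and 3 higher in CD8+ than in CD11b+ cells (29.9% and 3.90%), against 24.5% and 12.8% of all genes, so the share lower was near the background, and the median was -0.32. Mrpl23 (-1.09 ± 0.28), Mrpl34 (-0.88 ± 0.24), Mrpl36 (-0.81 ± 0.24), Mrpl33 (-0.79 ± 0.20), Mrpl52 (-0.73 ± 0.18), Mrps5 (-0.71 ± 0.19), Mrpl57 (-0.69 ± 0.21) and Mrps30 (-0.65 ± 0.19) were lower, and Mrps7 (1.03 ± 0.14), Mrps6 (0.70 ± 0.15) and Mrpl13 (0.66 ± 0.16) were higher. All of these had groups without overlap. Median centring gave 13 lower and 9 higher (16.9% and 11.7%, against 16.4% and 22.0% of all genes), and without CD8+ CpG replicate 1 the counts were 8 and 4. The CpG effect itself differed between the subsets for 5 members, where 13.4% of all genes had such a difference: Mrpl13 by 1.00 ± 0.22, Mrps7 by 0.70 ± 0.20, Mrps6 by 0.69 ± 0.22, Mrpl34 by -1.03 ± 0.33 and Mrpl57 by -0.94 ± 0.30, as CD8+ minus CD11b+. Without CD8+ CpG replicate 3, 9 were lower and 1 higher, and without any other of the 12 arrays but CD11b+ CpG replicate 3, 2 or 3 members were called. All 12 NK markers were lower in CD8+ than in CD11b+ cells after CpG (median -3.69, Ncr1 at -4.77 and Klrb1c at -4.49), as were 18 of 19 proliferation genes (median -0.94). All 12 NK markers also had a called difference of the CpG effect in that direction (median -3.07). Their part in the members' values was not tested.

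In NOD after CpG, 10 members were lower and 3 higher in CD8+ than in CD11b+ cells (13.0% and 3.90%), against 24.1% and 14.5% of all genes, with a median of -0.22. Mrpl33 (-0.85 ± 0.20), Mrpl30 (-0.59 ± 0.15), Mrps31 (-0.54 ± 0.18), Mrpl1 (-0.52 ± 0.14) and Mrpl24 (-0.46 ± 0.12) were lower without overlap, and Mrps7 (0.66 ± 0.14), Mrps6 (0.63 ± 0.15) and Mrps10 of the head (0.41 ± 0.16) were higher. The balance of calls turned: median centring gave 6 lower and 7 higher (7.79% and 9.09%, against 17.2% and 21.5% of all genes), and without NOD CD8+ CpG replicate 1 the counts were 3 and 9 and the median was 0.04. Without CD8+ CpG replicate 3 they were 26 and 2, and without CD11b+ CpG replicate 2 or 3 they were 4 and 2 or 6 and 2. The CpG effect differed between the subsets for Mrpl30 alone (-0.80 ± 0.21, adjusted p = 0.0251), where 6.8% of all genes had such a difference, and without the same array Mrps6 was the 1 member called, as the higher in CD8+ cells, with Mrpl30 at -0.60. Without CD8+ CpG replicate 3 there were 5, all lower, and without CD8+ PBS replicate 2 or 3, CD11b+ PBS replicate 1 or CD11b+ CpG replicate 1 or 2 there were 0. Mrps31, Mrpl1 and Mrps10 in the comparison of levels likewise lost their call without CD8+ CpG replicate 1, at -0.40, -0.36 and 0.35. Of 12 NK markers 6 were lower in CD8+ cells (median -0.71), and 2 were in the test of the CpG effect, with their part in the members' values not tested.

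Some members rest on probe sets that need care. Of the 77 genes, 8 have 2 probe sets, and in B6 CD8+ cells those of Mrpl23 gave -1.50 and -1.42, those of Mrps33 -1.32 and -1.24, and those of Mrpl27 0.37 and 0.28. Those of Mrpl41 differed, at -0.98 and -0.27, as did those of Mrpl47, at -0.37 and -0.05. RefSeq lists pseudogene copies of Mrpl23, Mrpl27, Mrpl48 and Mrps36, whose transcripts such probe sets might also read, so the values of these 4 are uncertain in that respect.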

How the data were processed

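RNA of the sorted cells was amplified from nanogram amounts and hybridised to GeneChip arrays. Per the submitters' processing notes, the deposited log2 values, 1 column per array, come from RMA and Partek. They range from 1.92 to 14.1. The labels and the platform annotation name different array models, so the model is unsettled here, and precision is limited by how many arrays there are. Of 35556 probe sets, 21789 carry 1 gene symbol, giving 19938 genes, and the 11228 genes above the array median on at least 3 arrays were tested. The test was limma 3.58.1 in R 4.3.3, with lmFit and eBayes with a trend over 24 arrays, a mean per group, 16 residual degrees of freedom and Benjamini-Hochberg adjustment within each of 12 comparisons and 4 interactions. The script was tested on simulated data. Errors are standard errors of the fit. Members named are, per comparison, up to 8 called in each direction whose groups did not overlap, up to 4 for an interaction, and a set of members of known role; exceptions are stated. Members and lists were chosen with earlier results of these data known. Same-numbered arrays deviated together in every pair (r over 0.1) in 8 of the 12 comparisons, for example 0.242 to 0.544 in CD8+ cells of both strains after CpG; the labels do not say what the numbers stand for. Other filters, scalings, models and left-out arrays were tried.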

Additional observations from a re-analysis of the deposited data

Results flagged for a closer look

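The effect of CpG differed between groups, by limma's test of the difference itself, for these members. Between strains in CD8+ cells, as NOD minus B6, the difference was -0.84 for Mrpl13 (adjusted p = 0.0325) and -0.81 for Mrps7 (adjusted p = 0.0216). Between subsets in B6, as CD8+ minus CD11b+, it was 1.00 for Mrpl13, 0.70 for Mrps7, 0.69 for Mrps6, -1.03 for Mrpl34 and -0.94 for Mrpl57, with adjusted p from 0.0037 for Mrpl13 to 0.0442 for Mrpl34. In the same test all 12 natural killer cell markers were lower (median -3.07), and their part in the members' values was not tested. Between subsets in NOD it was -0.80 for Mrpl30 (adjusted p = 0.0251). The B6 CD8+ arrays enter both the strain and the subset differences of Mrpl13 and Mrps7, so these are not independent of each other.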

How the results depend on the processing

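Counts are members called, higher and lower, and the cause of a change was not tested unless given. Leaving out 1 array gave 51 to 61 for CpG in B6 CD8+ cells, 6 to 43 in NOD CD8+, 8 to 16 in B6 CD11b+ and 1 to 3 in NOD CD11b+ cells. It gave 3 to 47 and 1 to 5 between strains after CpG in CD8+ and CD11b+ cells, and 0 to 1 (B6, PBS), 12 to 34 (B6, CpG), 2 to 4 (NOD, PBS) and 6 to 28 (NOD, CpG) between subsets. For the CpG effect it gave 0 to 37 (CD8+) and 0 to 1 (CD11b+) between strains, and 2 to 10 (B6) and 0 to 5 (NOD) between subsets. With no filter, counts were 6 between strains in CD8+ cells after CpG, 1 and 2 between subsets with PBS in B6 and NOD, and 2 for the B6 subset effect. The filter of 12 arrays gave 2 in NOD CD11b+ cells. Median centring gave 4 in NOD CD11b+ cells, 1 and 9 between strains in CD11b+ cells with PBS and CpG, 5 between B6 subsets with PBS, and 2 each for the CD11b+ strain effect and the NOD subset effect. Quantile normalization gave 2, 1, 8, 5, 2 and 2 in that order.

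Array weights gave 34 and 9 for CpG in B6 and NOD CD11b+ cells, 1 and 54 between strains in CD8+ cells with PBS and CpG, 3 and 14 in CD11b+ cells, 9, 9 and 24 between subsets in B6 with PBS and in NOD with PBS and CpG, 32 and 3 for the strain effect in CD8+ and CD11b+ cells, and 21 and 6 for the subset effect in B6 and NOD. The weights were 12.48 for NOD CD8+ CpG replicate 2 and 0.1538 and 0.3891 for replicates 1 and 3. With the replicate block, counts were 27 and 4 for CpG in B6 and NOD CD11b+ cells, 20 between strains in CD8+ cells after CpG, 1 and 8 in CD11b+ cells with PBS and CpG, 5 between B6 subsets with PBS, 2 for the CD11b+ strain effect and 12 for the B6 subset effect; other counts stayed within 1.5 times. Fitting only the groups compared, on fewer samples, gave 6 for CpG in NOD CD8+ cells, 35 and 4 in B6 and NOD CD11b+ cells, 1 between strains in CD8+ cells after CpG, 2 and 8 in CD11b+ cells with PBS and CpG, 11 between subsets in B6 with PBS, 7 and 4 in NOD with PBS and CpG, 0 and 3 for the strain effect in CD8+ and CD11b+ cells, and 21 and 0 for the subset effect in B6 and NOD.

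No called member named here turned its direction in these settings. Uncalled members did: Mrpl44 in B6 CD8+ cells stood at 0.06 under median centring and 0.06 under quantile normalization, Mrps18c there at 0.19 under centring and from -0.17 (without CpG replicate 3) to 0.08 (without CpG replicate 1), and Mrps7 in NOD CD8+ cells at 0.14, 0.10 and 0.09 under centring, quantile normalization and array weights and from -0.09 (without CpG replicate 3) over 0.03 (without PBS replicate 3) to 0.13 (without CpG replicate 1). With 3 arrays a group, small differences are beyond the precision of these data.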
